A study of Mus musculus with 9 samples.

Results

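The 9 genes described here make, break down or sense prostaglandins in the mouse colon, out of 27719 genes counted. They are the genes of the table with the symbols *Ptgs1*, *Ptgs2*, *Ptges*, *Ptgis*, *Ptgds*, *Hpgds*, *Hpgd*, *Ptger2* and *Ptger4*, chosen by name and not by their values. Full-length cDNA made from colon RNA of C57BL/6J mice was read on an Oxford Nanopore instrument, with 3 mice a group (control, DSS, DSS + EA) and 1 library per mouse. Control mice drank distilled water, and all other mice drank 2.5% dextran sodium sulfate (DSS), which injures the colon epithelium, over 7 days. In the DSS + EA group, electroacupuncture (EA), a weak current passed through needles, was applied daily at ST36, a point below the knee on each hind limb, in sessions of 30 minutes at 2 Hz and 0.2 mA. EA began after 5 days and was repeated on 5 days, and mice of the other groups were restrained for as long without current. No altered genotype is named, the ages of the mice are not given in the sources used here, and colon tissue is a mixture of cell types.

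Prostaglandins are short-lived lipids made from arachidonic acid. The cyclooxygenases COX-1 (*Ptgs1*, present in most tissues) and COX-2 (*Ptgs2*, induced by injury and inflammation) make the common precursor PGH2, and a terminal synthase turns it into PGE2, prostacyclin or PGD2. In the colon, PGE2 is known to act on the EP2 and EP4 receptors and to take part in epithelial repair, and 15-PGDH, the enzyme encoded by *Hpgd*, inactivates it.

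The promoters of the 3 genes whose levels moved furthest are shown for context, since one is the inducible cyclooxygenase, one the inducible PGE2 synthase and one the breakdown enzyme. Each window runs from 250 bases before the RefSeq start site to 50 bases after it, on the strand of the gene in GRCm38.p6, and capitals mark matches to the motifs searched. The windows are chr1:150099781-150100080 on the plus strand for *Ptgs2*, chr2:30903248-30903547 on the minus strand for *Ptges* and chr8:56294302-56294601 on the plus strand for *Hpgd*.
Ptgs2: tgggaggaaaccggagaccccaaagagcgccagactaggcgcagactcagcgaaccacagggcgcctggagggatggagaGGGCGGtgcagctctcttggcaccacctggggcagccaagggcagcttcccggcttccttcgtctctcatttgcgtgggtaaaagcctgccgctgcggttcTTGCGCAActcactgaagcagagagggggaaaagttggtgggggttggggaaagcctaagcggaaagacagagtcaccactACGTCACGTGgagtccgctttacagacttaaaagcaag
Ptges: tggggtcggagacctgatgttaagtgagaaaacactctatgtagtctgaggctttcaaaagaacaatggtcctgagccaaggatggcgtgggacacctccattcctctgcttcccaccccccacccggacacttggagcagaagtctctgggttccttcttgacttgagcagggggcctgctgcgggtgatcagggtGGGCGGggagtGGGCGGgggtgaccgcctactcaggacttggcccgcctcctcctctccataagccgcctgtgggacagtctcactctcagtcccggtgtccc
Hpgd: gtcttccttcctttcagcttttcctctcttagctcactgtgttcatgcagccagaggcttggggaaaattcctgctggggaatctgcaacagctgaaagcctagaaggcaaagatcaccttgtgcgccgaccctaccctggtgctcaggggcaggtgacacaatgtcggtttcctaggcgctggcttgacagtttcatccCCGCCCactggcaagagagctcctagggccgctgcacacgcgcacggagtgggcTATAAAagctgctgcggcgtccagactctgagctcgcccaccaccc
Both strands of the windows were searched for 8 motifs. The cAMP response element was searched in full, as TGACGTCA, and in a shorter form that lacks its leading letters, as ACGTCA. The E-box was searched with the letters CACGTG, which read the same on both strands. For factors of the C/EBP family the palindrome TTGCGCAA was used. The AP-1 motif was searched with the letters TGANTCA, in which N stands for any base. The GC box was searched as GGGCGG and is the motif of Sp1 and related factors. The TATA box, which marks the start of many inducible genes, was searched as TATAAA, and the NF-kB motif by its usual consensus. In the *Ptgs2* window the GC box began 170 bases before the RefSeq start site and the C/EBP palindrome began 69 bases before it. ACGTCA began at position 13 after that site and shared its last letters with an E-box. Where transcription of *Ptgs2* began in these mice was not examined, and bases outside the window were not searched. The C/EBP palindrome occurred in 0.183% of the 32851 RefSeq promoter windows of the same length, ACGTCA in 7.51%, the E-box in 7.15%, and the full element, AP-1 and NF-kB motifs, of which none was in this window, in 1.79%, 7.81% and 4.51%. The *Ptges* window held a pair of GC boxes, a motif found in 35.7% of windows, and the *Hpgd* window held a GC box on the other strand and a TATA box, found in 13.6% of windows, that began at position 5 after the RefSeq start site. GENCODE M21 places the start of *Hpgd* downstream of the RefSeq one, at 56294585. For *Ptges*, on the minus strand, the GENCODE gene reaches 30929863, upstream of the window shown, so its outermost annotated start is not covered. Of the 8 members with a window, *Ptgs1*, *Hpgds* and *Ptger2* held no match to any motif searched, *Ptger4* held GC boxes, and *Ptgds* held the AP-1 and NF-kB motifs. Matches of letters are a description and no binding was measured.

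Between 2627695 and 4235576 reads were counted per mouse, and levels are given as CPM, counts scaled to a common library size with the TMM method. A floor of 3 counts was worth between 0.708 and 1.14 CPM, and since PCR copies were not told apart, floors cover counting error only. Epithelial markers were present, with a sum between 7945 and 8682 CPM in control mice. This general list does not show by itself which part of the gut was taken. Of the DSS mice, mouse 1 stood apart, with an epithelial marker sum of 8596 CPM against 3282 CPM in mouse 2 and 1851 CPM in mouse 3. *Lgals4* made up 6431 CPM of the sum in mouse 1, in which 5 of 7 epithelial markers were below every control mouse and 2 above, while all 7 were below in mice 2 and 3. Mouse 1 stood apart also with a neutrophil marker sum of 4421 CPM against 23080 and 26330 CPM. DSS + EA mice 2 and 3 held 42260 and 18470 CPM of pancreatic acinar markers, 10 of 10 of which were higher in DSS + EA than in DSS mice, and counts of the acinar protease gene *Prss2* were between 0 and 2 in each control and DSS mouse and were 241, 13882 and 8470 in the DSS + EA mice. In bulk colon tissue, fewer cells of a type and less RNA per cell cannot be told apart.

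DSS colitis raised both cyclooxygenases, the PGE2 synthase and the prostacyclin synthase and lowered the breakdown enzyme. Of the 9 members, 8 passed the filter on low counts, and 5 of these differed between DSS and control mice at an adjusted p under 0.05, with 4 higher and 1 lower, where 40.9% of all 12566 genes tested differed (21.5% higher and 19.5% lower). The median log2 fold change of the 8 members was 0.70, against 0.02 over all genes. The same 5 members had groups that did not overlap, as did 52.0% of all genes tested. In mice given EA as well as DSS, *Ptgs2*, *Ptges* and *Ptgis* were lower than with DSS alone, and 0 members were higher at this threshold in edgeR (1, *Hpgd*, at an unadjusted p under 0.05 and with DESeq2), where 35.5% of genes differed (17.2% higher and 18.3% lower). The median of the members was -0.48, against -0.02 over all genes, and 5 members did not overlap between these groups, as did 47.4% of genes. The DSS mice are shared between these comparisons, so a high DSS value acts on each of them. Below, changes with DSS are differences of DSS mice from control mice, and changes with EA are differences of DSS + EA mice from DSS mice. At the thresholds in the methods of the study, a log2 fold change beyond 2.5 and an unadjusted P under 0.01, *Ptgs2* and *Ptges* passed between DSS and control, where 10.2% of genes passed (6.62% higher and 3.57% lower), and *Hpgd* at -2.48 was just inside the fold limit. *Ptges* alone among the members passed between DSS + EA and DSS, where 6.41% of genes passed (2.91% higher and 3.50% lower). No member passed between DSS + EA and control, where 2.08% did (1.74% higher and 0.334% lower).

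**Figure D1:**
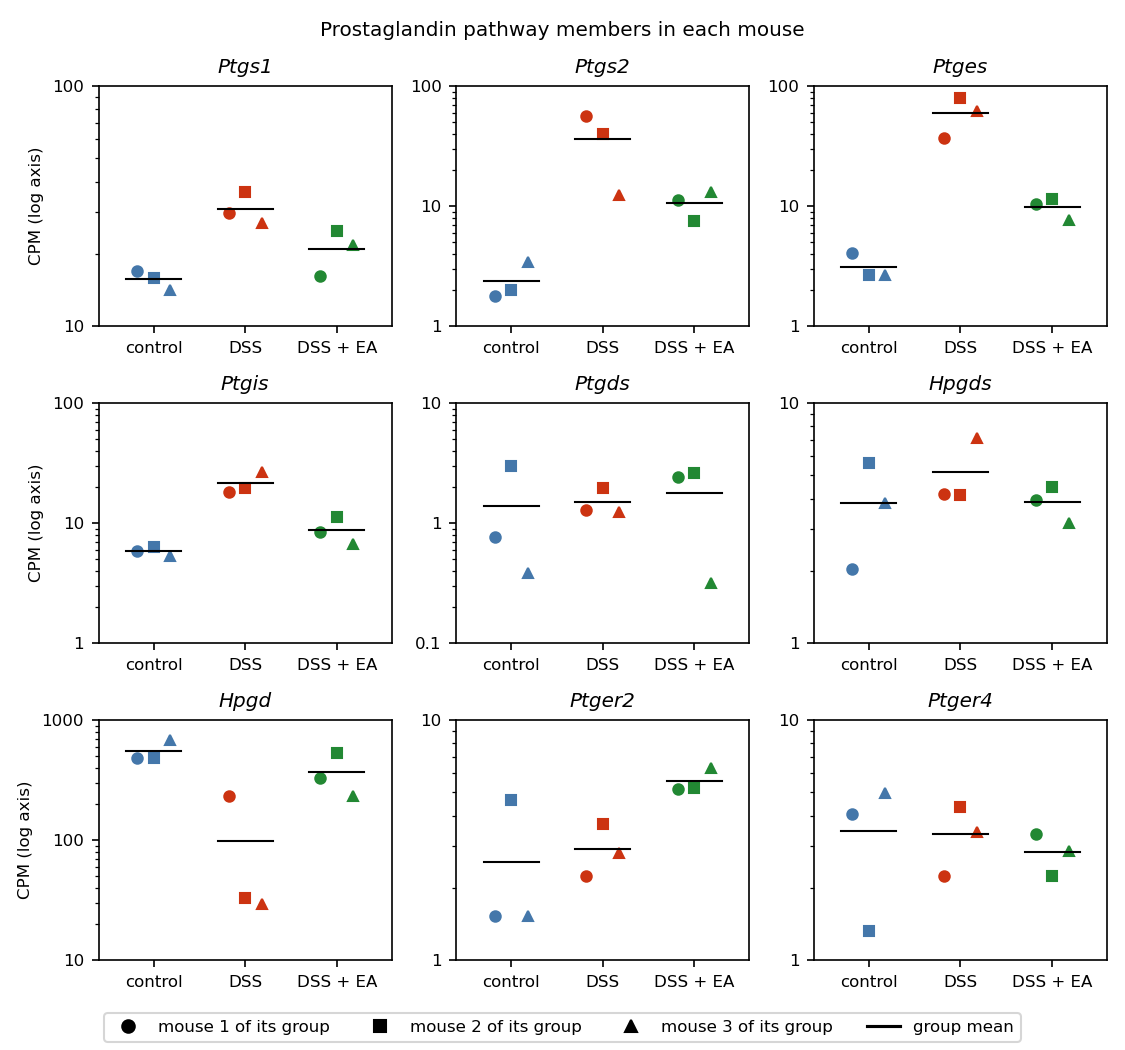
Level of each of the 9 members in CPM (log axis) in each mouse, by group, with symbols for the mouse number and a line for the group mean. All 3 DSS mice lie above the control mice for *Ptgs1*, *Ptgs2*, *Ptges* and *Ptgis* and below them for *Hpgd*, and DSS mouse 3 (12.5 CPM) lies among the DSS + EA mice for *Ptgs2*.

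*Ptgs2*, the inducible cyclooxygenase gene (chromosome 1, 150100031 to 150108227, plus strand of GRCm38), was counted at 7, 6 and 9 reads in the control mice, which is 1.78, 2.00 and 3.45 CPM. In the DSS mice it was counted at 175, 183 and 40 reads, or 56.3, 39.8 and 12.5 CPM. In the DSS + EA mice the counts of 37, 20 and 41 gave 11.3, 7.47 and 13.0 CPM. All DSS mice were above all control mice, the spread within the DSS group was wide, and DSS mouse 3 was below the highest DSS + EA mouse. The log2 fold change between DSS and control was 3.93 ± 0.57 (SE, adjusted p = 0.000676), a 15.2-fold rise. Between DSS + EA and DSS it fell by 1.76 on the log2 scale (SE 0.48, adjusted p = 0.0185), with groups that overlap. That call was lost without DSS mouse 2 (adjusted p = 0.0508), without DSS + EA mouse 1 (0.0507) or without DSS + EA mouse 2 (0.0686). Without DSS mouse 3, the log2 fold change was -2.16 (adjusted p = 0.00186), and without DSS mouse 1 it was -1.28 (0.0452).

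*Ptgs1*, which encodes the constitutive cyclooxygenase (chromosome 2, 36230426 to 36252272, plus strand), moved less. It was at 17.0, 16.0 and 14.2 CPM in control mice, 29.6, 36.1 and 26.8 CPM in DSS mice and 16.1, 25.0 and 21.9 CPM in DSS + EA mice. DSS mice were above every mouse of the other groups, and the DSS + EA mice lay across the upper control values and above them. The rise with DSS was 0.97 ± 0.23 on the log2 scale (SE, adjusted p = 0.00784), and DSS + EA mice differed from DSS mice by -0.56 ± 0.22 (adjusted p = 0.0768). The log2 ratio of *Ptgs2* to *Ptgs1* within a mouse was -2.32 ± 0.488 (SD, n = 3) in control, -0.00133 ± 0.983 in DSS and -0.937 ± 0.601 in DSS + EA mice, computed with a pseudocount of 1 CPM. This ratio was higher in each DSS mouse than in each control mouse, and the DSS and DSS + EA mice overlapped.

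*Ptges* encodes microsomal prostaglandin E synthase 1, the inducible enzyme that makes PGE2 (chromosome 2, 30889471 to 30929863, minus strand). With all mice included, it had the largest log2 fold change of the tested members with DSS and with EA. *Hpgd* moved more with EA when DSS mouse 1 was left out (3.57 against -2.82 for *Ptges*). Over the alternatives, the change with DSS was 3.96 to 4.43 for *Ptges* and 3.45 to 4.33 for *Ptgs2*, ranges that overlap. Counts of *Ptges* were 16, 8 and 7 in control mice, 115, 367 and 199 in DSS mice and 34, 31 and 24 in DSS + EA mice. These are 4.07, 2.66 and 2.68 CPM, then 37.0, 79.7 and 62.1 CPM, and then 10.3, 11.6 and 7.61 CPM. The 3 groups did not overlap, and DSS + EA mice lay between the other groups. The level in DSS mice was 18.5-fold that in control mice (log2 fold change 4.21 ± 0.36, SE, adjusted p = 5.11e-05) and 6.06-fold that in DSS + EA mice (log2 fold change of DSS + EA against DSS -2.60 ± 0.32, adjusted p = 0.000639). Both calls held in 17 of 17 alternatives at this threshold, each mouse left out in turn among them.

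*Ptgis*, the prostacyclin synthase gene (chromosome 2, 167191805 to 167240604, minus strand), had the same order of groups over a smaller range. It was at 5.84, 6.32 and 5.37 CPM in control mice, 18.3, 19.6 and 26.5 CPM in DSS mice and 8.52, 11.2 and 6.66 CPM in DSS + EA mice, and the 3 groups did not overlap. The log2 fold change was 1.87 ± 0.27 (SE, adjusted p = 0.000689) between DSS and control and -1.29 ± 0.26 (adjusted p = 0.00539) between DSS + EA and DSS, and both calls held in 17 of 17 alternatives. For the synthases of PGD2, no difference passed the test. *Hpgds*, the hematopoietic form (chromosome 6, 65117293 to 65144908, minus strand), was counted at 8 to 17 reads in control, 13 to 23 in DSS and 10 to 13 in DSS + EA mice. Its log2 fold change was 0.44 between DSS and control (95% interval -0.49 to 1.37, adjusted p = 0.427) and -0.41 between DSS + EA and DSS (-1.34 to 0.52, adjusted p = 0.468), so the interval for DSS still holds a 2-fold rise. *Ptgds*, the lipocalin form (chromosome 2, 25466709 to 25470046, minus strand), was counted at 3, 9 and 1 reads in control, 4, 9 and 4 in DSS and 8, 7 and 1 in DSS + EA mice and was removed by the filter.

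**Figure D2:**
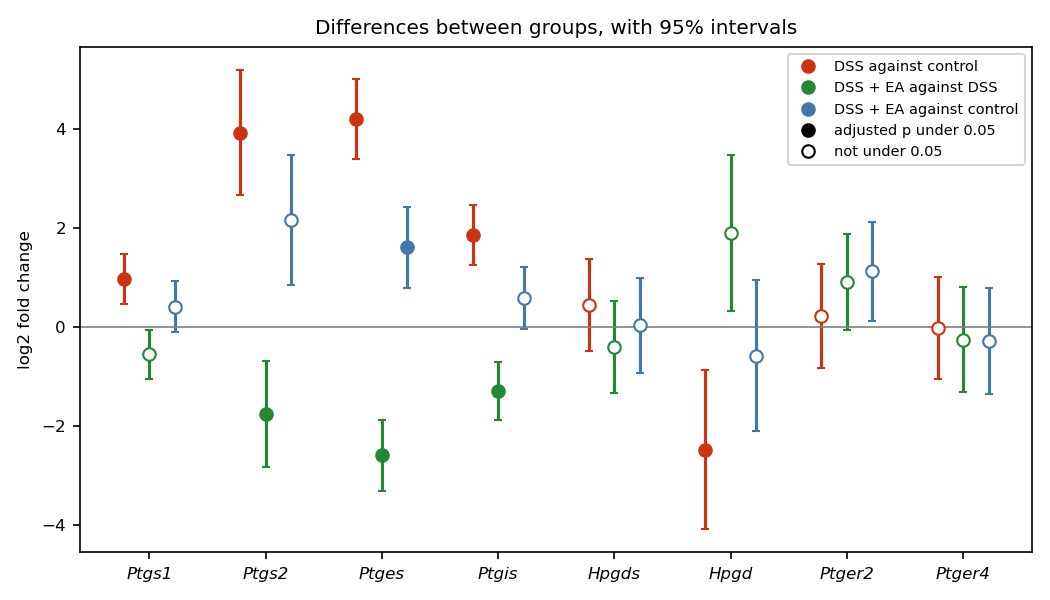
Log2 fold change (points) with 95% intervals (bars) of the 8 tested members in the 3 comparisons. Filled points have an adjusted p under 0.05, and the *Ptges* points at 4.21 and -2.60 lie furthest from 0 among the red and the green points with all mice included.

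*Hpgd*, the gene of the enzyme that inactivates prostaglandins (chromosome 8, 56294585 to 56321043, plus strand), was the member with the most reads, and it moved the other way. It was counted at 1892, 1444 and 1786 reads in control mice, or 481, 480 and 684 CPM. In the DSS mice the counts of 721, 153 and 94 gave 232, 33.2 and 29.3 CPM, and in the DSS + EA mice those of 1082, 1429 and 742 gave 329, 534 and 235 CPM. DSS mice were below all control mice, DSS mouse 1 was close to DSS + EA mouse 3, and the DSS + EA mice ranged from the DSS level to the control level. The log2 fold change between DSS and control was -2.48 ± 0.72 (SE, adjusted p = 0.0207), a level 5.60-fold lower, and this call was lost without control mouse 3 (adjusted p = 0.0562) or without DSS mouse 2 (0.0606). DSS + EA mice differed from DSS mice by 1.90 ± 0.71 (adjusted p = 0.0601), which did not pass the threshold, although the groups did not overlap. Without DSS mouse 1, the log2 fold changes were -4.15 between DSS and control (adjusted p = 5.42e-05) and 3.57 between DSS + EA and DSS (0.000176). The second comparison also passed with DESeq2 (adjusted p = 0.0191) and with no filter on low counts (0.0347).

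Between the groups, *Hpgd* moved with the markers of surface colonocytes, the absorptive cells at the mouth of the crypts. All 6 of these markers fell with DSS and 5 of 6 rose with EA, where 19.5% of all genes tested fell and 17.2% rose. All 6 markers were below every control mouse in each DSS mouse. Their sum was between 11030 and 29030 CPM in control mice, at 5025, 1355 and 798.6 CPM in DSS mice 1, 2 and 3, and at 9226, 14920 and 6487 CPM in DSS + EA mice 1, 2 and 3. *Car1*, a carbonic anhydrase gene, made up much of the sum, for example 21530 CPM in control mouse 3 and 9990 CPM in DSS + EA mouse 2. Among the DSS mice, all 6 markers were highest in mouse 1, the mouse with the highest *Hpgd*, and 5 of 6 had the same order of mice as *Hpgd*. Within the other groups the markers did not move as one with *Hpgd*. In the control mouse with the highest *Hpgd* 2 of 6 were highest of the group and 3 lowest, and in the DSS + EA mouse with the highest *Hpgd* 3 were highest and 3 lowest. Of 7 general epithelial markers, 3 fell with DSS and 2 rose with EA. The part of these cells in the difference of *Hpgd* was not tested. Over the 9 libraries, the genes with the pattern of log2 levels (CPM plus 1) most like that of *Hpgd* were *Cryl1* (Pearson r = 0.9935), *Cth* (0.9902) and *Hadh* (0.9899). *Cth* encodes cystathionine gamma-lyase and *Hadh* a mitochondrial enzyme of fatty acid oxidation, and the correlation includes the differences between the groups.

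**Figure D3:**
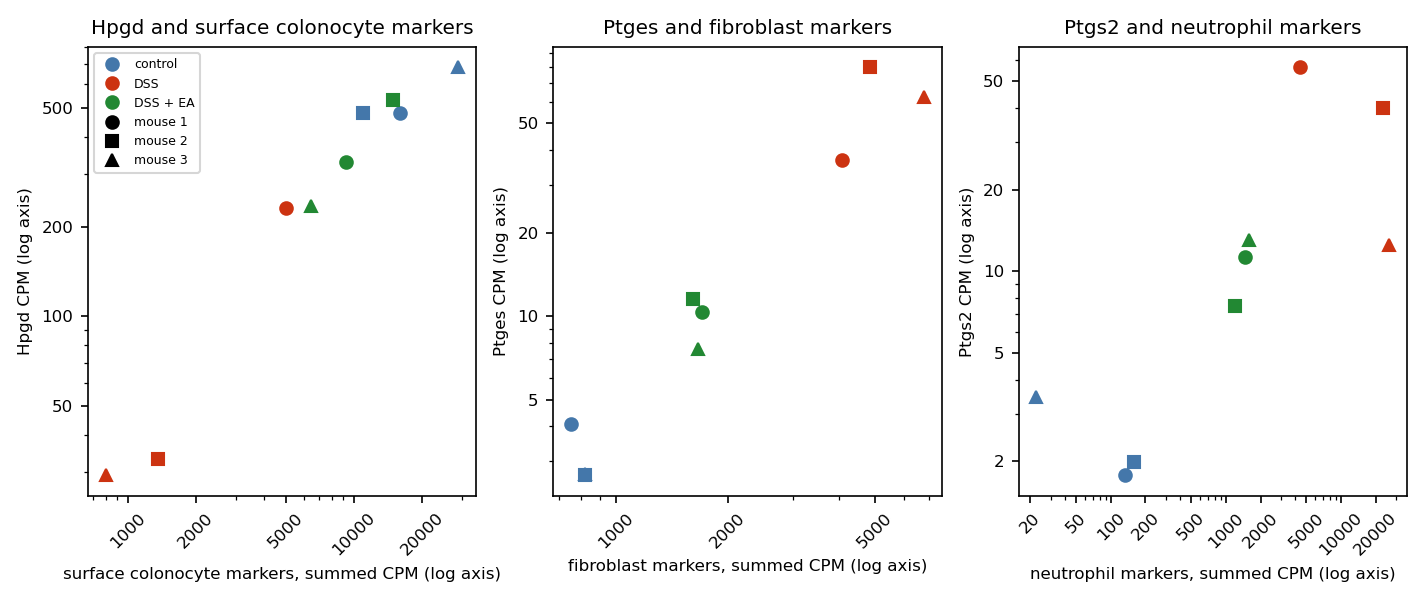
Level of *Hpgd*, *Ptges* and *Ptgs2* in each mouse (vertical, CPM, log axis) against the summed CPM of surface colonocyte, fibroblast and neutrophil markers (horizontal, log axis), with colours for groups and symbols for mouse numbers. DSS mouse 1 has the lowest neutrophil sum of its group (4421 CPM) and the highest *Ptgs2* (56.3 CPM), and the points of control mice 2 and 3 nearly coincide in the middle panel.

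Within a mouse, the log2 ratio of *Ptgs2* to *Hpgd* sets the inducible cyclooxygenase against the breakdown enzyme. It was -7.44, -7.33 and -7.27 in control mice, -2.02, 0.251 and -1.17 in DSS mice and -4.75, -5.98 and -4.08 in DSS + EA mice. The 3 groups did not overlap on this ratio, and the control mice were within a narrow range. The group means were -7.34 ± 0.0867 (SD, n = 3), -0.981 ± 1.15 and -4.94 ± 0.965. The ratio was made from genes whose levels are given above, so it carries no test of its own, and whether all transcripts were read equally well was not tested. The group mean of *Hpgd* was 548 CPM in control mice and 98.2 CPM in DSS mice, and the means of the other members were between 1.38 and 59.6 CPM in every group.

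**Figure D4:**
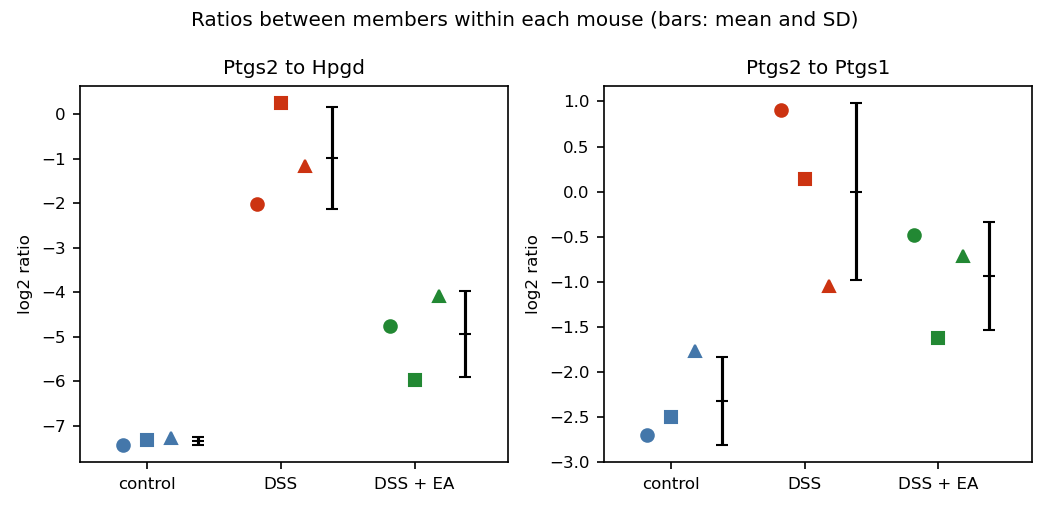
Log2 ratio of *Ptgs2* to *Hpgd* (left) and of *Ptgs2* to *Ptgs1* (right) in each mouse, with symbols for mouse numbers and bars for the mean and SD of 3 mice. On the left, DSS + EA mice (mean -4.94) lie between control mice (-7.34) and DSS mice (-0.981) with no overlap.

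The receptors were counted at few reads and 0 of 2 were called in any comparison by edgeR or DESeq2, with *Ptger2* at an unadjusted p of 0.0324 between DSS + EA and control. *Ptger2*, the EP2 receptor gene (chromosome 14, 44988195 to 45003820, plus strand), was counted at 6, 14 and 4 reads in control mice, 7, 17 and 9 in DSS mice and 17, 14 and 20 in DSS + EA mice. In CPM the DSS + EA mice, at 5.17, 5.23 and 6.34, were above every mouse of the other groups, whose highest value was 4.66. The log2 fold change of *Ptger2* was 0.91 (95% interval -0.06 to 1.88, adjusted p = 0.128) against DSS and 1.12 (0.11 to 2.13, adjusted p = 0.24) against control. Groups that do not overlap were found for 47.4% and 32.2% of all genes in these comparisons. *Ptger4*, the EP4 receptor gene (chromosome 15, 5206661 to 5244187, minus strand), was at 1.33 to 4.98 CPM in control, 2.25 to 4.34 CPM in DSS and 2.24 to 3.35 CPM in DSS + EA mice. Its log2 fold change was -0.02 (-1.06 to 1.02, adjusted p = 0.975) with DSS and -0.26 (-1.32 to 0.80, adjusted p = 0.696) with EA, intervals that hold 2-fold changes in either comparison. *Ptger4* overlaps *Ttc33* on the opposite strand, and whether strand was used in counting is not given in the sources used here.

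Compared with the control group, DSS + EA mice still had more *Ptges*, with a log2 fold change of 1.61 ± 0.37 (SE, adjusted p = 0.045), and this was the 1 member called where 3.64% of all genes were (3.00% higher and 0.637% lower). The call was weak: it was lost when any control mouse or any DSS + EA mouse was left out, with adjusted p-values of 0.0938 to 0.159 over these 6 fits. *Ptgs2* was at 7.47 to 13.0 CPM in DSS + EA mice and 1.78 to 3.45 CPM in control mice, with no overlap. Its log2 fold change was 2.16 ± 0.59 (adjusted p = 0.0801), which passed without DSS mouse 1 (adjusted p = 0.0457) or DSS mouse 3 (0.0103) in the common fit, with no filter (0.041), with only the 2 groups compared (0.00786) and with DESeq2 (0.0124). *Hpgd* and *Ptgs1* overlapped between these groups, with log2 fold changes of -0.58 (95% interval -2.11 to 0.94) and 0.41 (-0.10 to 0.93). *Ptgis* did not overlap, at 0.58 (-0.05 to 1.21, adjusted p = 0.337).

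Markers of several cell types moved with the synthesis genes. All 6 fibroblast markers rose with DSS and 4 of 6 fell with EA, where 21.5% of all genes tested rose and 18.3% fell. The fibroblast sum was 753.5 to 823.6 CPM in control, 4079 to 6796 CPM in DSS and 1612 to 1703 CPM in DSS + EA mice. *Ptges*, *Ptgis* and the macrophage, neutrophil and endothelial sums had the same order of groups. Within the DSS group, *Ptgis* had the same order of mice as the fibroblast, macrophage and neutrophil sums alike, all highest in mouse 3. *Ptges* had the order of the endothelial sum, with its highest level in mouse 2. Within the DSS + EA group, mouse 2 had the lowest value of each of these sums and the highest *Ptges* and *Ptgis*. Of 7 macrophage markers, 6 rose with DSS and 3 fell with EA, with sums of 406.2 to 424.2 CPM, 1230 to 2417 CPM and 821.7 to 921.5 CPM. All 6 tested neutrophil markers, of 7 listed, rose with DSS and 4 fell with EA, and their sum was 22.61 to 158.6 CPM, 4421 to 26330 CPM and 1190 to 1586 CPM. *Ptgs2* did not follow this sum within the DSS group, since DSS mouse 3 had the highest neutrophil sum and the lowest *Ptgs2*. Of 6 endothelial markers, 4 rose with DSS and 4 fell with EA. Their sum was 44.45 to 52.2 CPM in control, 112.3 to 169.7 CPM in DSS and 54.91 to 62.17 CPM in DSS + EA mice. Of 6 smooth muscle markers, 5 fell with DSS, as did 19.5% of all genes tested. Mast cells, a known source of *Hpgds*, were hardly seen: 1 of 7 markers passed the filter, *Ms4a2* was at 0 in every library, and the summed level was at most 8.474 CPM. Tuft cell markers summed to between 4.826 and 13.98 CPM. The part of cell numbers in the differences of the synthesis genes was not tested.

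The genes with the pattern most like that of *Ptgs2* over the 9 libraries were *Ereg* (Pearson r = 0.9609), which encodes the growth factor epiregulin, *Rpl31* (0.9592), a ribosomal protein gene, and *Dcp2* (0.9585), an mRNA decapping enzyme gene. *Ereg* was below 1 CPM in control mice, at 25.7, 41.1 and 8.74 CPM in DSS mice and at 4.57, 5.6 and 8.88 CPM in DSS + EA mice, so that DSS mouse 3 lay with the DSS + EA mice as it did for *Ptgs2*. These r values describe 9 libraries in 3 groups that differ for many genes.

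Around these members, 36 other genes of arachidonic acid release, prostanoid synthesis, transport, further breakdown and sensing and of the lipoxygenase branch were looked up, and 22 passed the filter. With DSS, 10 of the 22 changed (5 higher and 5 lower), against the 40.9% of all genes, and with EA 8 changed (5 higher and 3 lower), against 35.5%. Their median log2 fold change was -0.16 with DSS and 0.28 with EA, against 0.02 and -0.02 over all genes. Between DSS + EA and control, 3 differed (2 higher and 1 lower), where 3.64% of all genes did (3.00% higher and 0.637% lower). That count of 3 became 1 without control mouse 1 or without any 1 of the DSS + EA mice. The EA count of 8 also moved with single mice: it was 12 without DSS mouse 1, 4 without DSS mouse 2 or DSS + EA mouse 3, and 5 without DSS mouse 3, DSS + EA mouse 1 or DSS + EA mouse 2. Of 6 other prostanoid synthase genes, 5 were tested and 0 were called in any comparison by edgeR or DESeq2, with 1, *Ptges2*, at an unadjusted p under 0.05, lower with EA, named here after its value was seen. Of 7 other prostanoid receptor genes, 1, *Ptger1*, was tested, and it did not pass by either tool or at an unadjusted p under 0.05. The rest were removed by the filter, so this is no result about them. Among these, *Ptgfr*, named after its values were seen, was counted at 4 reads or fewer in each library. In the edgeR fit with no filter its unadjusted p between DSS + EA and control was 0.0196 (adjusted p = 0.264).

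**Figure D5:**
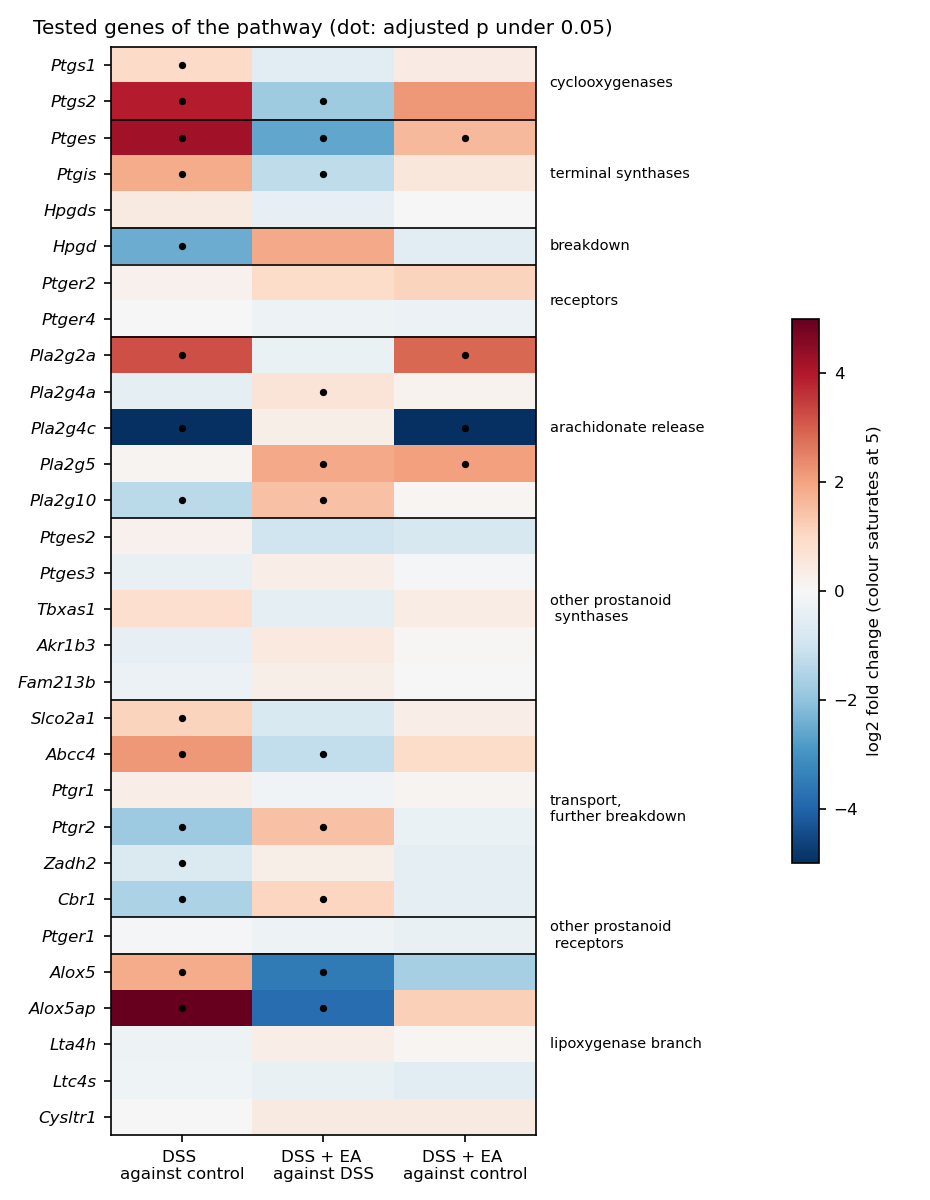
Log2 fold change (colour, saturating at 5 in either direction) of the 8 members and 22 other genes tested, grouped by role, in the 3 comparisons, with dots at an adjusted p under 0.05. *Alox5ap* (4.99 with DSS, -3.81 with EA) and *Pla2g4c* (-7.09 with DSS) have the strongest colours.

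In the breakdown and transport group, *Ptgr2*, which encodes a reductase that acts after 15-PGDH, moved like *Hpgd*. It was at 80.3, 93.8 and 59.8 CPM in control mice, 22.8, 17.8 and 25.3 CPM in DSS mice and 54.5, 63.5 and 65.7 CPM in DSS + EA mice. It fell by 1.83 on the log2 scale with DSS (SE 0.23, adjusted p = 0.000313) and rose by 1.48 with EA (SE 0.23, adjusted p = 0.00146). *Cbr1*, a carbonyl reductase that acts on prostaglandins, fell by 1.60 with DSS (SE 0.39, adjusted p = 0.0088). *Abcc4*, an exporter of PGE2, was at 1.15 to 2.33 CPM in control, 4.83 to 9.78 CPM in DSS and 2.74 to 3.81 CPM in DSS + EA mice, with log2 fold changes of 2.16 ± 0.40 (adjusted p = 0.00245) and -1.23 ± 0.37 (0.0282). The DSS calls of all 3 genes and the EA call of *Ptgr2* held with each mouse left out, and the EA call of *Abcc4* was lost without DSS mouse 2 or 3 or without any 1 of the DSS + EA mice (adjusted p = 0.0678 to 0.0979). *Ptgr1* and *Zadh2*, of the same group, are named here after their values were seen. *Ptgr1* did not fall with DSS (log2 fold change 0.33, adjusted p = 0.208). *Zadh2* fell by 0.73 with DSS (adjusted p = 0.0369), a call that held in 5 of 9 fits with a mouse left out. Its change with EA was 0.28 (adjusted p = 0.391).

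Phospholipase A2 genes, which encode enzymes that release arachidonic acid and other fatty acids, differed from each other. *Pla2g2a* RNA rose by 3.22 ± 0.45 with DSS (SE, log2 scale, adjusted p = 0.00059). It was at 73.7 to 129 CPM in DSS + EA mice against 114 to 131 CPM in DSS mice and 4.60 to 22.6 CPM in control mice. It was above control in DSS + EA mice (log2 fold change 2.88 ± 0.45, adjusted p = 0.00873), a call lost without control mouse 1 (0.0689). Whether *Pla2g2a* RNA gave an active enzyme in these mice was not measured. *Pla2g5*, the gene of a secreted form, was at 7.28 to 22.6 CPM in control, 9.05 to 23.8 CPM in DSS and 54.9 to 66.9 CPM in DSS + EA mice. It was higher in DSS + EA mice than in DSS mice by 1.90 ± 0.41 (adjusted p = 0.00692) and than in control mice by 2.03 ± 0.41 (0.0268). DSS + EA mice 2 and 3, with the highest pancreatic marker sums, were at 54.9 and 66.9 CPM against 57.8 CPM in mouse 1. Mouse 1 also held counts of pancreatic markers, and the part of pancreatic RNA in the level of *Pla2g5* was not tested. The difference from DSS mice held with each mouse left out, and that from control mice was lost without control mouse 1 or 3 or without any 1 of the DSS + EA mice (adjusted p = 0.0623 to 0.152). *Pla2g4a*, the cytosolic form that feeds the cyclooxygenases, rose by 0.65 ± 0.18 with EA (adjusted p = 0.0213), at 36.2 to 40.3 CPM in DSS + EA mice against 21.5 to 28.0 CPM in DSS mice and 31.0 to 35.6 CPM in control mice. That call was lost without DSS mouse 2 (adjusted p = 0.0575), DSS + EA mouse 1 (0.0684) or DSS + EA mouse 3 (0.0824). *Pla2g4c* was counted at 51, 402 and 38 reads in control mice, 0, 4 and 0 in DSS mice and 0, 2 and 2 in DSS + EA mice. Its log2 fold change with DSS was -7.09 ± 1.29 (adjusted p = 0.00223), a value that depends on the prior count at so few reads. DSS + EA mice were at least 54.0-fold below the mean of the control mice, against a floor of 3 counts per library. Control mouse 2 carried that bound, which was 13.8-fold without it, and the call between DSS + EA and control (adjusted p = 0.0194) was lost without any 1 of the DSS + EA mice (0.0676 to 0.103).

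The leukotriene branch draws on the same arachidonic acid. *Alox5ap*, which encodes the 5-lipoxygenase activating protein of myeloid cells, was at 14.2, 20.3 and 13.0 CPM in control mice, 102, 498 and 920 CPM in DSS mice and 39.0, 36.6 and 33.0 CPM in DSS + EA mice. Its log2 fold change was 4.99 ± 0.68 with DSS (SE, adjusted p = 0.000487) and -3.81 ± 0.64 with EA (0.00221). DSS mouse 1 had the lowest *Alox5ap* of its group and also the lowest neutrophil, macrophage and fibroblast sums. Within the DSS + EA group, mouse 3 had the highest neutrophil sum and the lowest *Alox5ap*. *Alox5*, the lipoxygenase itself, was counted at 10, 33 and 43 reads in DSS mice and at 3, 0 and 3 in DSS + EA mice (adjusted p = 0.00742). The mean CPM of the DSS mice was 7.97-fold the DSS + EA floor of 3 counts per library, or 5.22-fold without DSS mouse 3. DSS mouse 1 was the lowest of the DSS mice, at 3.22 CPM. The EA calls of *Alox5ap* and *Alox5* held with each mouse left out in turn. Of the 5 tested genes of this branch, these were the 2 that changed with DSS, and the same 2 changed with EA, but the DSS call of *Alox5* (adjusted p = 0.0424) held in only 2 of 9 fits with a mouse left out, those without DSS mouse 1 and without DSS + EA mouse 2. *Ltb4r1*, the gene of a leukotriene B4 receptor, was removed by the filter and is named here after its values were seen. It was counted at 3, 2 and 0 reads in control mice, 4, 61 and 47 in DSS mice and 4, 5 and 4 in DSS + EA mice, so that DSS mouse 1 lay with the DSS + EA mice. In the fit with no filter its adjusted p was 0.00215 with DSS and 0.0156 with EA. The mean CPM of the DSS mice was 10.04-fold the control floor of 3 counts per library (14.4-fold without DSS mouse 1, 7.496-fold without DSS mouse 3). DSS mouse 1 by itself, at 1.29 CPM, was near that floor.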

How the data were processed

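The authors deposited a table of raw read counts per gene for 9 mouse colon libraries, 3 in each group, from Oxford Nanopore full-length cDNA, without normalization. The build mm10 is named in the processing notes of the submitters, and the aligner, the counter, the annotation and the use of strand are not given in the sources used here. How reads shared by overlapping or near-identical genes were assigned is therefore not known. The table has 27733 lines, of which 14 held no counts and were skipped. Columns were matched to mice by name.

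All 9 libraries entered 1 model with a term for the group, fitted with edgeR 4.0.16 in R 4.3.3 (quasi-likelihood F test, TMM, prior count of 0.125), after filterByExpr by group had kept 12566 genes. P-values were adjusted over these genes by the Benjamini-Hochberg method, and a gene was called at an adjusted p under 0.05. SE is the log2 fold change divided by the square root of F. *Ptgs2* and *Ptges* passed the filter with 1 of 3 control libraries above its minimum of 3.095 CPM and with all DSS and DSS + EA libraries above it. *Ptger2* passed through the DSS + EA group. A test on single values of 3 against 3 mice cannot give an exact permutation p under 0.1, and none was made.

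The members, the other lists and the tests were chosen with earlier results of these data known. All members are named. Of the other pathway genes, those called with the lowest p-values, up to 3 higher and 3 lower, are given with values for DSS against control and for EA against DSS alone, and for *Ptgs2* and *Hpgd* the 3 genes with the highest Pearson r of log2(CPM + 1). Genes named from the marker lists are those that show a library or a cell type to stand apart or that make up most of a sum. Leaving out each mouse for single pathway genes and bounds was added after seeing the data.

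Alternatives were scaling by RLE size factors or by library totals, no filter, a mean of at least 20 counts, DESeq2 1.42.0, a prior count of 2, the replicate number as a block, only the 2 groups compared, the thresholds in the methods of the study (log2 fold change beyond 2.5 and P under 0.01), and each mouse left out in turn. On counts simulated for the DSS against control comparison, with 12566 genes, edgeR recovered 85% of genes changed 4-fold and 98% of those changed 8-fold, with 12 unchanged genes called. The simulation gave every gene the same dispersion and changed far fewer genes than were called in these data. It held no mouse that stood apart from its group, so these rates need not hold here. Positions are from GENCODE M21 and promoters from RefSeq, both on GRCm38. Figures were drawn with Python 3.11.15, pandas 2.3.3 and matplotlib 3.10.9. Replicates are separate mice.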

Additional observations from a re-analysis of the deposited data

How the results depend on the processing

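The DSS calls of *Ptgs1*, *Ptgs2*, *Ptges* and *Ptgis* and the EA calls of *Ptges* and *Ptgis* held in each of the 17 alternatives run at an adjusted p under 0.05. With the thresholds in the methods of the study, 2 members passed between DSS and control (*Ptgs2* and *Ptges*), 1 between DSS + EA and DSS (*Ptges*) and 0 between DSS + EA and control, and 3 and 2 of the other pathway genes passed in the first 2 comparisons. Between DSS + EA and control, the 1 member called became 0 with library totals, a mean of at least 20 counts or the replicate block and 2 with no filter, DESeq2 or only the 2 groups compared. The 8 other pathway genes called between DSS + EA and DSS became 4 with a mean of at least 20 counts or only the 2 groups compared. With each mouse left out in turn, members called ranged from 4 to 5 between DSS and control, 2 to 4 between DSS + EA and DSS and 0 to 2 between DSS + EA and control, and other pathway genes from 7 to 15, 4 to 12 and 1 to 4. Leaving out a mouse means fewer samples, and the cause of the other changes was not tested.

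Signs turned for log2 fold changes near 0, none of which was called. Between DSS and control, *Ptger4* was at -0.02, at 0.0173 with library totals, at 0.0455 with the replicate block and between -0.44 and 0.25 with a mouse left out, and *Ptger2* was between -0.12 and 0.90. Between DSS + EA and control, *Hpgds* was between -0.31 and 0.43 and *Ptger4* between -0.66 and 0.0311 with a mouse left out. Over all genes, 457 were called between DSS + EA and control (82.5% higher), 1149 (68.8% higher) with only the 2 groups compared and 697 with DESeq2, and the median log2 fold change moved to 0.107 with DSS and -0.174 with EA under DESeq2. Mice that share a number are different animals, their deviations correlated between -0.163 and 0.111, and the block lowered calls over all genes from 5144 to 4543 between DSS and control and from 4457 to 3829 between DSS + EA and DSS, and changed no member call there. At this depth, *Ptgds*, *Hpgds* and the receptors were counted at 23 reads or fewer in each library, which limits what can be seen of them.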
